A study of Mus musculus with 26 samples.

Results

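The genes described here were 6 enzymes that make or use NADPH, the nicotinamide cofactor that carries reducing power, among 12394 genes measured in mouse lung: Nnt, Idh1, Idh2, Me1, Pgd and Txnrd2. They were picked by symbol with earlier results of the same data known, and Nnt was chosen by its log2 values, which differed between the genotypes. Its levels by genotype are therefore given as a description, without a test. Each gene was represented by the probe set with a single symbol and the highest mean. NADPH supplies electrons to glutathione reductase and the thioredoxin reductases, which keep the peroxide-removing systems of the cell working under an oxidant such as ozone (O3). In mitochondria it is made by the proton-driven transhydrogenase Nnt of the inner membrane and by the isocitrate dehydrogenase Idh2. In the cytosol it is made by Idh1, by malic enzyme (Me1) and by phosphogluconate dehydrogenase (Pgd) of the pentose phosphate pathway.

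Left lungs came from male Il10-/- mice of the strain B6.129P2-Il10tm1Cgn/J (spelt Il10tmlCgn in the labels), which carry a targeted Il10 allele in every cell. The others came from male Il10+/+ mice of the strain C57BL/6. All mice were 6-8 weeks old and from the same supplier, which the study's methods name as Jackson Laboratories. Mice of both genotypes breathed filtered air for 24 or 48 hr, or 0.3 ppm O3 for 24, 48 or 72 hr. Of the 26 arrays, 13 were from Il10-/- mice (4 air, 9 O3) and 13 from Il10+/+ mice (4 air, 9 O3), and each array was treated as 1 mouse, since the labels name no pools. Air of 24 and 48 hr was pooled within a genotype. As background, C57BL/6J mice are known to carry a deletion within Nnt; the labels name C57BL/6 without a substrain, and Il10 genotype and strain background cannot be told apart here because each genotype was a single strain.

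A pair of arrays stood apart from the rest. Replicate 2 of the Il10-/- mice exposed to O3 for 24 hr had log2 values of 6.36 for Sftpc, the surfactant gene of alveolar type 2 cells, 8.43 for Scgb1a1, the club cell secretory gene, 6.05 for Ager of alveolar type 1 cells and 8.78 for endothelial Pecam1. On the other 25 arrays, Sftpc lay between 14.29 and 14.48, Scgb1a1 between 14.08 and 14.4, Ager between 12.63 and 13.1 and Pecam1 between 10.69 and 11.38, so those arrays carried the markers of lung. Replicate 2 also had summed log2 marker levels of 14.08 for B cells, 13.72 for dividing cells and 13.61 for red blood cells. The highest sums on the other 25 arrays were 11.32, 11.42 and 11.52 in that order. Replicate 2 was left out, so 8 Il10-/- O3 arrays were used. The library labelled Il10-/- air 48 hr replicate 1 had an Il10 value of 3.87, just below the range of the 13 Il10+/+ arrays (3.92 to 4.25), whereas the other 11 Il10-/- arrays lay between 6.29 and 7.71. The Il10 probe set gave higher signal in the mutant than in the wild type, and since its place relative to the targeted part of the gene was not known here, it separates the labelled genotypes but says nothing about the loss of Il10. That library was kept under its label, and the calls of the 6 genes and of the pathway genes that were lost without it are named.

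Nnt signal was about 2-fold higher in Il10-/- than in Il10+/+ lungs under O3. In Il10-/- lungs exposed to O3, Nnt had log2 values of 9.03 and 8.53 at 24 hr, 8.74, 8.73 and 8.78 at 48 hr, and 8.93, 8.88 and 8.72 at 72 hr. In Il10+/+ lungs exposed to O3, Nnt had values of 7.59, 7.68 and 7.78 at 24 hr, 7.74, 7.43 and 7.63 at 48 hr, and 7.54, 7.61 and 7.5 at 72 hr. The lowest of the 8 Il10-/- arrays (8.53) lay above the highest of the 9 Il10+/+ arrays (7.78). Of all genes, 0.0807% (10 of 12394) had every Il10-/- O3 array above every Il10+/+ O3 array; Nnt was chosen for this contrast, so its place among them is no test. The fitted difference was 1.18 on the log2 scale (SE 0.14), a ratio of 2.26, and it was 1.1 at 24 hr, 1.15 at 48 hr and 1.29 at 72 hr. The array that was left out of the Il10-/- 24 hr group had an Nnt value of 8.64, above all Il10+/+ O3 arrays. That array lacked the lung markers, so its value does not count toward this difference. In a homogenate of whole lung, more cells that express a gene and more of its RNA per cell cannot be told apart.

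In air, the Il10-/- lungs had Nnt values of 8.9 and 8.9 at 24 hr and 7.66 and 9.18 at 48 hr, against 7.69 and 7.89 at 24 hr and 7.86 and 7.47 at 48 hr in the Il10+/+ lungs. The value of 7.66 belongs to the library labelled Il10-/- air 48 hr replicate 1, and it lay inside the Il10+/+ air range of 7.47 to 7.89, as its Il10 value lay with that genotype. With it, the air groups overlapped and differed by 0.93. Without it, the Il10-/- air arrays averaged 8.99 ± 0.16 (SD, n = 3), the Il10+/+ air arrays averaged 7.73 ± 0.19 (SD, n = 4), and the difference was 1.26.

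A separate probe set for Nnt gave a like picture with wider spread. It ranged from 6.86 to 7.94 over the 8 Il10-/- O3 arrays and from 5.74 to 6.78 over the 9 Il10+/+ O3 arrays, a fitted difference of 1.2 (SE 0.22), and the groups did not overlap. In air it read 7.41 and 7.19 at 24 hr and 5.97 and 7.95 at 48 hr in Il10-/- lungs, against 6.39, 6.54, 6.96 and 6.12 in Il10+/+ lungs. The low value of 5.97 was again that of the library labelled Il10-/- air 48 hr replicate 1. Across the 25 arrays this probe set and the one used had a Pearson r of 0.91, as a description.

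**Figure D1:**
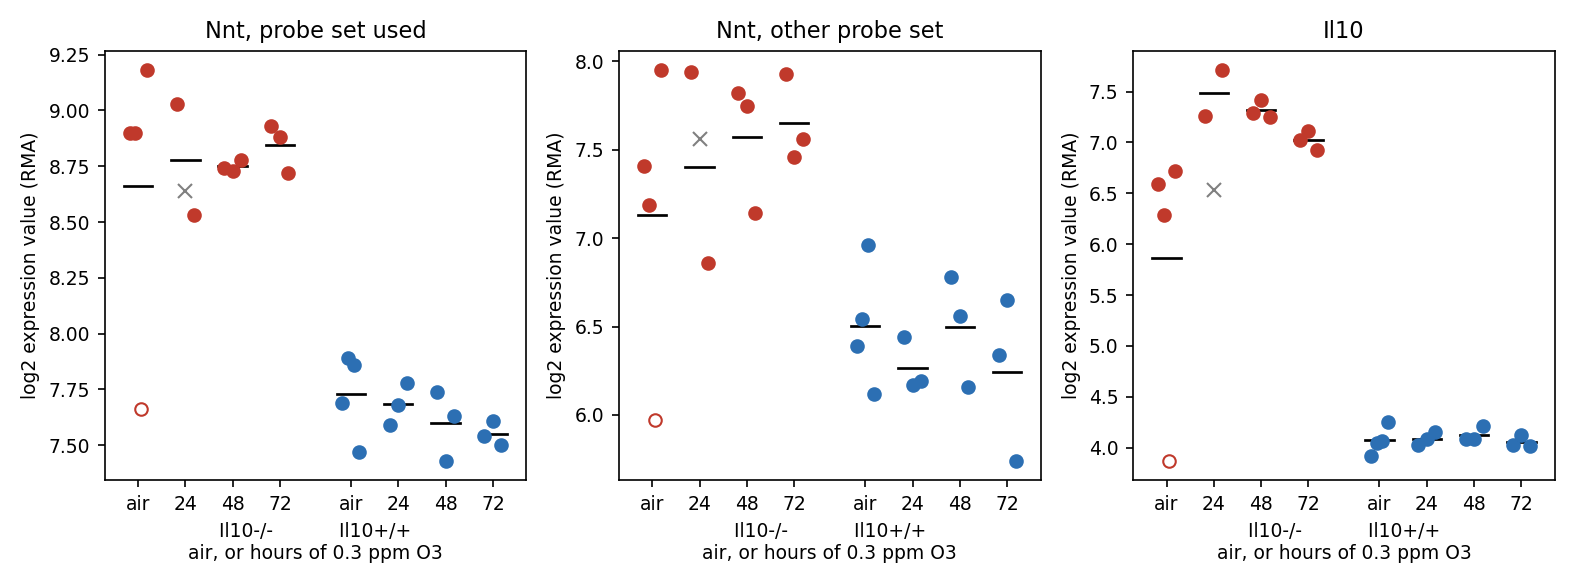
Log2 expression values per array of the Nnt probe set used (left), the other Nnt probe set (middle) and Il10 (right), in Il10-/- (red) and Il10+/+ (blue) lungs in air or after 24, 48 or 72 hr of O3. Points are arrays and lines are group means over the 25 arrays used; the open circle is the library labelled Il10-/- air 48 hr replicate 1, which lies with the Il10+/+ arrays in all 3 panels, and the grey cross is the array left out.

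O3 did not move Nnt past the threshold in either genotype. The mean of the 3 O3 times minus air was 0.13 in Il10-/- lungs (95% interval -0.24 to 0.51, limma adjusted p = 0.752) and -0.12 in Il10+/+ lungs (-0.48 to 0.25, adjusted p = 0.814). The Il10-/- value was -0.2 (adjusted p = 0.347) without the library labelled Il10-/- air 48 hr replicate 1. Its sign turned with that library.

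None of the measured genes next to Nnt on chromosome 13 was higher in Il10-/- lungs by a like amount. By their order in the mouse assembly GRCm38.p6, the 6 measured genes on one side were Pelo, Isl1, Parp8, Emb, Mrps30 and Fgf10, and the 6 on the other were Paip1, 4833420G17Rik, 3110070M22Rik, Tmem267, Ccl28 and Hmgcs1. None of these 12 passed the threshold between Il10-/- and Il10+/+ lungs over O3, where 0.637% of all genes did. The widest differences were those of Tmem267 (-0.5, SE 0.16, limma adjusted p = 0.162) and Paip1 (-0.43, SE 0.18, adjusted p = 0.302), both lower in Il10-/- lungs. Mrps30, a protein of the mitochondrial ribosome and close to Nnt in the order, ranged from 7.61 to 8 in Il10-/- and from 7.41 to 7.63 in Il10+/+ O3 lungs (0.16, adjusted p = 0.246). Of the 458 other measured genes of chromosome 13, 1 passed over O3, the transcription factor gene Mef2c (-0.69, adjusted p = 0.0044), named after its value was seen.

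The 3 genes whose values followed Nnt most closely over the 25 arrays were Wdfy1 (Pearson r = 0.96), Ctse, which encodes cathepsin E (0.94), and Il10 itself (0.94). All 3 lie on chromosome 1. Within the 12 Il10-/- arrays r was 0.87, 0.83 and 0.73 in that order, and within the 13 Il10+/+ arrays it was 0.37, -0.24 and -0.18. The Il10-/- values of r include the library labelled Il10-/- air 48 hr replicate 1, which is low for both Nnt and Il10. These are descriptions over arrays that share a normalization and differ in genotype.

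None of the other 5 genes differed between genotypes past the threshold in air or over O3. Of all genes, only 0.637% (79 of 12394) passed over O3 in either direction. Over O3, Il10-/- minus Il10+/+ was 0.15 for Pgd (95% interval 0.04 to 0.26, limma adjusted p = 0.219), 0.07 for Idh2 (-0.04 to 0.18, adjusted p = 0.645), -0.03 for Idh1 (-0.19 to 0.13, adjusted p = 0.92), -0.11 for Me1 (-0.26 to 0.04, adjusted p = 0.606) and -0.12 for Txnrd2 (-0.27 to 0.02, adjusted p = 0.519). In air, where 0.00807% of genes (1 of 12394) passed, the 5 differences lay between -0.17 for Idh1 and 0.05 for Pgd.

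Pgd, which makes NADPH by oxidising 6-phosphogluconate, rose with O3 in Il10-/- lungs. It had log2 values of 9.88 and 9.89 at 24 hr, 9.58, 9.73 and 9.72 at 48 hr and 9.83, 9.88 and 9.91 at 72 hr of O3 in Il10-/- lungs, against 9.46, 9.57, 9.52 and 9.35 in Il10-/- air. All 8 O3 arrays lay above all 4 air arrays, as was so for 1.98% of all genes, and the arrays of 48 hr were the lowest of the O3 arrays. Over the 3 times the change was 0.34 (SE 0.068, a ratio of 1.26, limma adjusted p = 0.00331). By time it was 0.41 at 24 hr (adjusted p = 0.0244), 0.2 at 48 hr (adjusted p = 0.183) and 0.4 at 72 hr (adjusted p = 0.00641). Of all genes, 1.32% were higher at 24 hr, 4.04% at 48 hr and 4.25% at 72 hr.

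In Il10+/+ lungs, Pgd had values of 9.74, 9.75 and 9.6 at 24 hr, 9.78, 9.39 and 9.54 at 48 hr and 9.75, 9.66 and 9.73 at 72 hr of O3, against 9.39, 9.48, 9.49 and 9.36 in air. Of the 9 O3 arrays only replicate 2 of 48 hr, at 9.39, lay within the air range. The change over the 3 times was 0.23 (SE 0.066, adjusted p = 0.0563), just short of the threshold, and it passed without that array (0.26, adjusted p = 0.0226) and without Il10-/- O3 24 hr replicate 1 or 3 (adjusted p = 0.0412 each). By time none of the 3 changes passed, and 0.0484% of all genes were higher at 24 hr, 2.71% at 48 hr and 2.47% at 72 hr. The difference between the genotypes in the O3 change of Pgd was 0.11 (95% interval -0.09 to 0.3, adjusted p = 1), so the call in one genotype alone does not show a difference between them.

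All 4 probe sets of Pgd were higher with O3 in Il10-/- lungs when every probe set was tested, by 0.34 to 0.51 (limma adjusted p = 0.00424 to 0.0288). In Il10+/+ lungs their changes were 0.23, 0.14, 0.19 and 0.05, and none passed (adjusted p = 0.0679 to 0.912). The 3 probe sets that were not used had their lowest values of all Il10-/- arrays in the library labelled Il10-/- air 48 hr replicate 1, at 9.01, 9.03 and 8.19. The probe set used had a value of 9.52 there, and without that library its Il10-/- change was 0.35 over the 3 times (adjusted p = 0.00949), 0.43 at 24 hr (0.0426), 0.22 at 48 hr (0.227) and 0.41 at 72 hr (0.0127). The call at 24 hr was lost without Il10-/- air 24 hr replicate 1 (limma adjusted p of 0.0548) or Il10-/- air 48 hr replicate 2 (0.0639), and against the air arrays of 24 hr alone (0.37, adjusted p = 0.179). It was also lost with array weights (0.42, adjusted p = 0.985), in a fit of only the arrays compared (0.41, adjusted p = 0.402) and with all 26 arrays (0.11, adjusted p = 0.661).

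Me1, the cytosolic malic enzyme that turns malate into pyruvate and NADPH, was higher with O3 in both genotypes. In Il10-/- lungs it had log2 values of 9.43 and 9.48 at 24 hr, 9.64, 9.65 and 9.66 at 48 hr and 9.55, 9.71 and 9.55 at 72 hr of O3, against 9.1, 9.32, 9.37 and 9.27 in air. All 8 O3 arrays again lay above all 4 air arrays, as was so for 1.98% of all genes. In Il10+/+ lungs it had values of 9.57, 9.82 and 9.35 at 24 hr, 9.79, 9.64 and 9.89 at 48 hr and 9.6, 9.68 and 9.8 at 72 hr of O3, against 9.23, 9.55, 9.47 and 9.05 in air. These groups overlapped, because 1 array of 24 hr lay at 9.35 and the air arrays spread from 9.05 to 9.55.

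The change of Me1 over the 3 times was 0.31 in Il10-/- lungs (SE 0.093, a ratio of 1.24, limma adjusted p = 0.047) and 0.36 in Il10+/+ lungs (SE 0.091, a ratio of 1.28, adjusted p = 0.0289). At 48 hr it was 0.39 in Il10-/- lungs (adjusted p = 0.0467) and 0.45 in Il10+/+ lungs (adjusted p = 0.0309). At 24 hr (0.19 in Il10-/-, 0.25 in Il10+/+) and 72 hr (0.34 and 0.37 in that order) it did not pass in either genotype. The genotypes differed in this change by -0.05 (95% interval -0.32 to 0.22, adjusted p = 1).

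The calls for Me1 lay close to the threshold. With all 26 arrays, the Il10-/- change over the 3 times turned to -0.08 (limma adjusted p = 0.947), and the Il10+/+ change of 0.36 did not pass (adjusted p = 0.9). The array added there lacked the lung markers and had a Me1 value of 6.02. In Il10-/- lungs the call over the 3 times held in 7 of the 25 sets that left out 1 array, namely without Il10-/- O3 24 hr replicate 3, Il10+/+ air 24 hr replicate 2, Il10+/+ air 48 hr replicates 1 and 2, Il10+/+ O3 24 hr replicates 2 and 3 and Il10+/+ O3 48 hr replicate 3. The change stayed between 0.25 and 0.34 in all 25, and without the library labelled Il10-/- air 48 hr replicate 1 it was 0.34 (adjusted p = 0.0706). In Il10+/+ lungs the call was lost without air 24 hr replicate 1 (adjusted p = 0.126), air 48 hr replicate 2 (0.155), O3 24 hr replicate 2 (0.0523), O3 48 hr replicate 3 (0.0557) or O3 72 hr replicate 3 (0.0588). The other probe set of Me1 changed by 0.24 in Il10-/- lungs (adjusted p = 0.298) and by 0.51 in Il10+/+ lungs (adjusted p = 0.0211, over all probe sets). At 48 hr the Il10-/- call of Me1 held in 8 of the 25 sets and was 0.0583 without the library labelled Il10-/- air 48 hr replicate 1, as adjusted p. The Il10+/+ call at 48 hr held in 21 and was lost without air 24 hr replicate 1 (0.102), air 48 hr replicate 2 (0.108), O3 48 hr replicate 1 (0.088) or O3 48 hr replicate 3 (0.185).

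Other settings also ended the 48 hr calls of Me1. In Il10-/- lungs the limma adjusted p was 0.263 against air of 48 hr alone, 0.0568 with the replicate block, 0.0531 in a fit of only the arrays compared, 0.1 with the letter covariate, 0.0628 with averaged probe sets and 0.889 with all 26 arrays. In Il10+/+ lungs it was 0.0762 against air of 48 hr alone, 0.104 in a fit of only the arrays compared and 0.878 with all 26 arrays. The letter covariate marks a letter c that ends some of the source names.

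**Figure D2:**
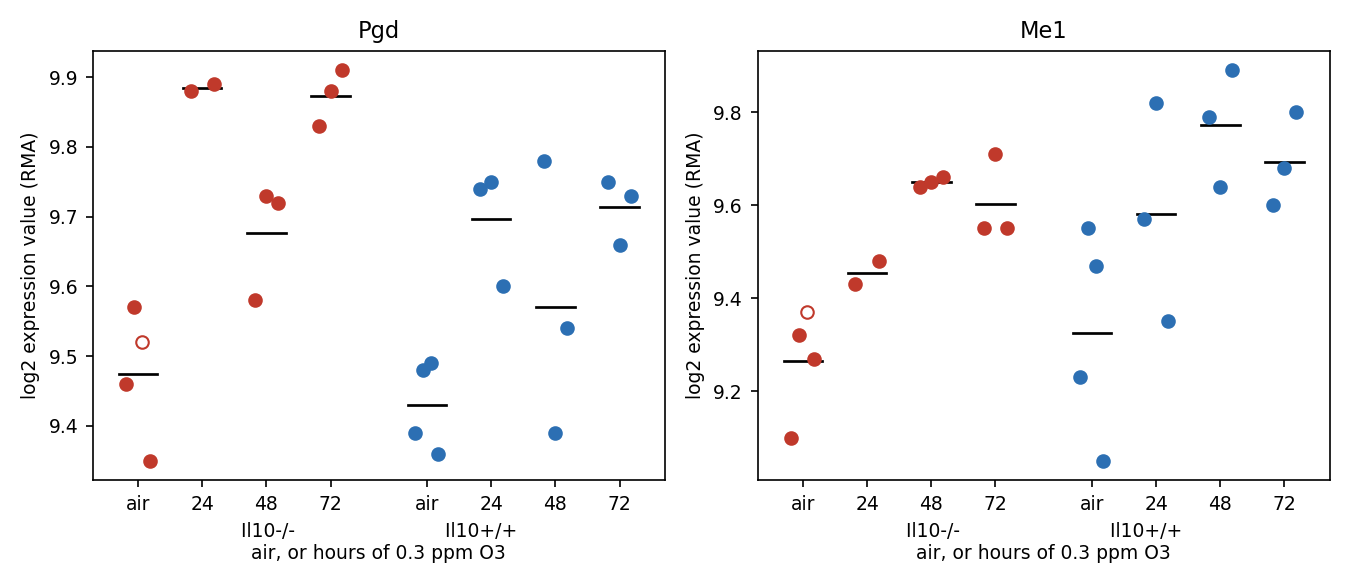
Log2 expression values per array of Pgd (left) and Me1 (right) in Il10-/- (red) and Il10+/+ (blue) lungs in air or after 24, 48 or 72 hr of O3. Points are the 25 arrays used, lines are group means, and the open circle is the library labelled Il10-/- air 48 hr replicate 1. In Il10-/- lungs every O3 array lies above every air array for both genes, as is so for 1.98% of all genes. In Il10+/+ lungs the groups overlap.

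In Il10-/- lungs 2 of the 6 (Pgd and Me1) were higher with O3 over the 3 times, where 5.27% of all genes were higher and 2.28% lower. In Il10+/+ lungs 1 of the 6 (Me1) was higher, where 2.74% of all genes were higher and 0.92% lower. None of the 6 was lower in either genotype. Without the library labelled Il10-/- air 48 hr replicate 1, 501 genes in place of 936 were called in Il10-/- lungs, 2.98% of all genes were higher, and 1 of the 6 (Pgd) was higher. Both genotypes were compared with their own air arrays, so the differences from air share no samples. The calls do share samples, because a single model took the spread of each gene from the arrays of both genotypes. The counts of the genotypes are therefore not independent.

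**Figure D3:**
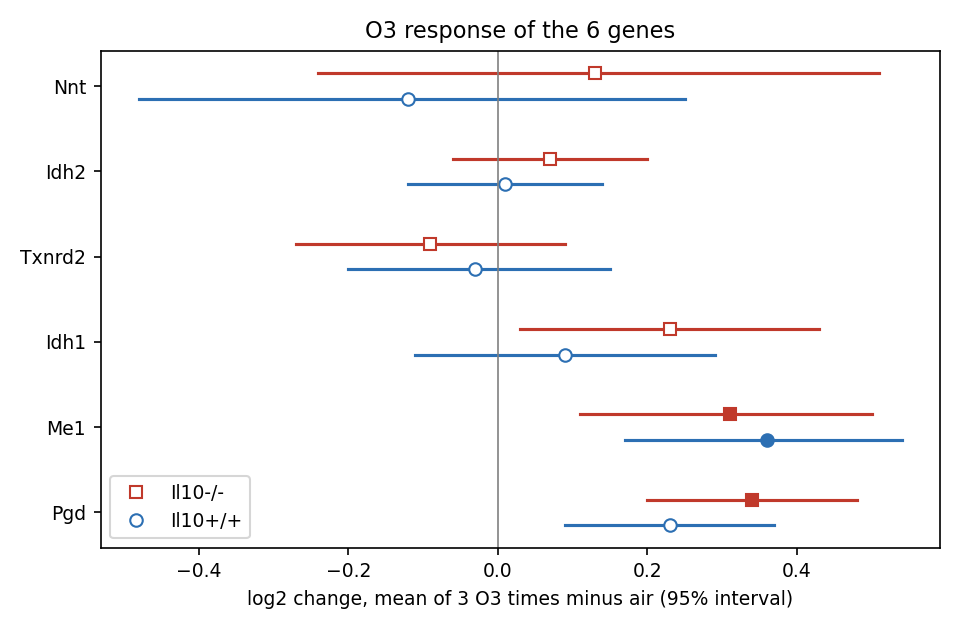
Mean of the 3 O3 times minus air on the log2 scale for the 6 genes, with 95% intervals, in Il10-/- (red squares) and Il10+/+ (blue circles) lungs. Filled symbols passed an adjusted p of 0.05 over 12394 genes: Pgd at 0.34 and Me1 at 0.31 in Il10-/- lungs, and Me1 at 0.36 in Il10+/+ lungs.

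Idh1, the cytosolic and peroxisomal isocitrate dehydrogenase, did not pass in either genotype. It ranged from 9.44 to 9.92 (median 9.73) over the 8 Il10-/- O3 arrays and had values of 9.54, 9.48, 9.51 and 9.39 in Il10-/- air. Only replicate 3 of 24 hr, at 9.44, lay below the highest air array. Its change over the 3 times was 0.23 (95% interval 0.03 to 0.43, limma adjusted p = 0.163), and 0.24 (adjusted p = 0.256) without the library labelled Il10-/- air 48 hr replicate 1. In Il10+/+ lungs it ranged from 9.51 to 9.95 (median 9.72) with O3 and had air values of 9.48, 9.77, 9.94 and 9.42, and its change was 0.09 (-0.11 to 0.29, adjusted p = 0.709). The other Idh1 probe set changed by 0.56 in Il10-/- (adjusted p = 0.133) and by 0.07 in Il10+/+ lungs (adjusted p = 0.929).

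Idh2 and Txnrd2, the mitochondrial pair beside Nnt, stayed near their air levels. Idh2 ranged from 10.19 to 10.39 over the Il10-/- O3 arrays and from 10.02 to 10.35 over the Il10-/- air arrays, and from 10.07 to 10.36 and 10.1 to 10.25 over the Il10+/+ arrays in that order. Its change over the 3 times was 0.07 in Il10-/- lungs (95% interval -0.06 to 0.2) and 0.01 in Il10+/+ lungs (-0.12 to 0.14), neither past the threshold. Txnrd2, which passes electrons from NADPH to mitochondrial thioredoxin, ranged from 6.89 to 7.43 over Il10-/- O3 arrays and from 7.12 to 7.37 over Il10-/- air arrays. In Il10+/+ lungs it ranged from 7.07 to 7.41 with O3 and from 7.13 to 7.45 in air. The changes of Txnrd2 were -0.09 (-0.27 to 0.09) in Il10-/- and -0.03 (-0.2 to 0.15) in Il10+/+ lungs; its lowest values, 6.91 and 6.89, were Il10-/- arrays of 72 hr, where the change was -0.21 (adjusted p = 0.298). Without the same library the Il10-/- changes over the 3 times were 0.07 for Idh2 and -0.1 for Txnrd2. The other Txnrd2 probe set changed by 0.1 in Il10-/- (limma adjusted p = 0.771 over all probe sets) and by 0 in Il10+/+ lungs (0.997). At 24 hr it changed by 0.31 in Il10-/- lungs (0.451). Its Pearson r with the probe set used was only 0.23, so the 2 probe sets of Txnrd2 followed each other poorly.

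**Figure D4:**
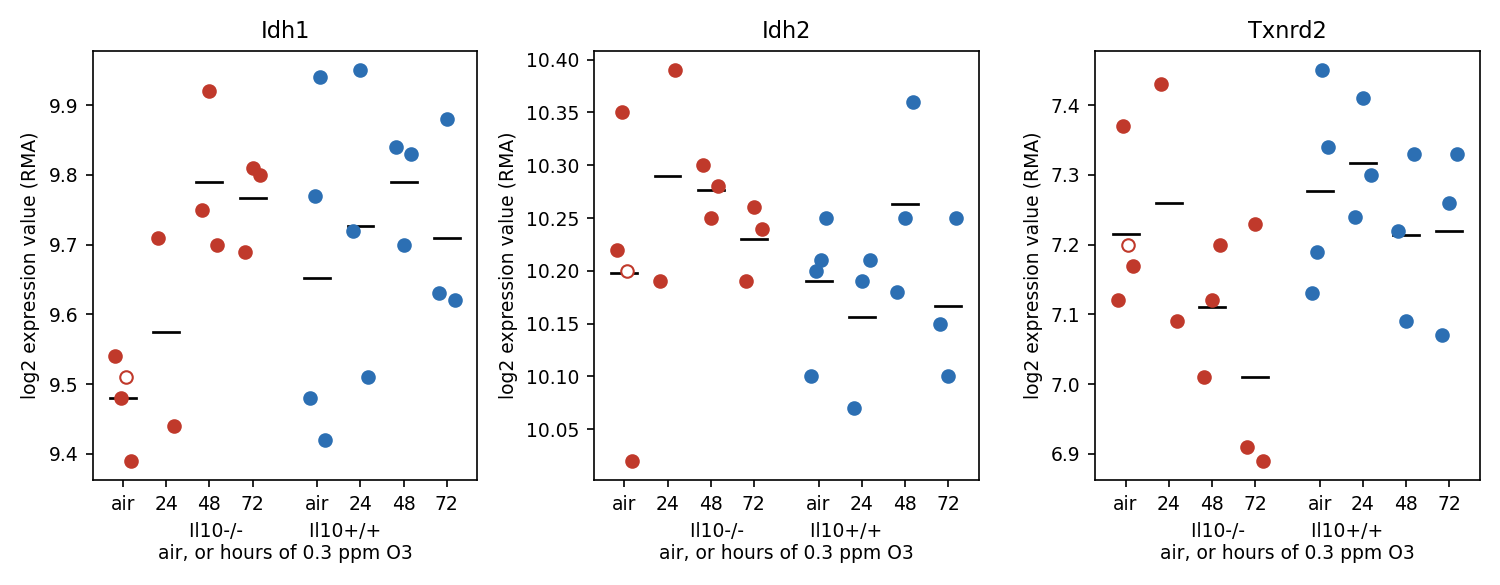
Log2 expression values per array of Idh1 (left), Idh2 (middle) and Txnrd2 (right) in Il10-/- (red) and Il10+/+ (blue) lungs in air or after 24, 48 or 72 hr of O3. Points are the 25 arrays used, lines are group means, and the open circle is the library labelled Il10-/- air 48 hr replicate 1; O3 and air groups overlap in both genotypes for all 3 genes.

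No difference between the genotypes in the O3 response passed for the 5 genes other than Nnt, nor for any gene: in limma, 0 of 12394 passed for the mean response, where 504 had an unadjusted p under 0.05, and 0 passed the F test of genotype by exposure, where 417 did. Among the 6 genes, Idh1 and Me1 followed each other most closely over the 25 arrays (Pearson r = 0.73, and 0.74 within Il10-/- and 0.71 within Il10+/+ arrays), and Me1 and Pgd had an r of 0.51. Nnt had an r between -0.3 and 0.28 with the other 5. The genes most like Pgd were Mat1a (0.84), Pnp (0.83) and Tmem176b (0.82), and those most like Me1 were Osmr (0.84), Muc4 (0.83) and Tfrc (0.83). Idh1 was closest to 2610528J11Rik (0.81), Dennd2d (0.81) and Dtwd1 (0.8), Idh2 to Cstf1 (0.76), Wdr31 (0.72) and Golph3l (0.71), and Txnrd2 to Msrb2 (0.79), Anks3 (0.77) and Atp2a1 (0.75).

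Other genes of the same pathways were counted from lists of NADPH producers and users. Over the 3 O3 times, 5.27% of all genes were higher in Il10-/- and 2.74% in Il10+/+ lungs, so the share called was itself larger in Il10-/- lungs. Of 7 measured genes of the pentose phosphate pathway, 3 were higher in Il10-/- lungs with O3 and 0 in Il10+/+ lungs: Pgd, the transketolase gene Tkt (0.36, SE 0.077, limma adjusted p = 0.0059) and the transaldolase gene Taldo1 (0.28, SE 0.075, adjusted p = 0.0223). The list median was 0.12 in Il10-/- and 0.07 in Il10+/+ lungs, against -0.01 over all genes in both. In Il10+/+ lungs Tkt changed by 0.13 (adjusted p = 0.418) and Taldo1 by 0.15 (adjusted p = 0.315). G6pdx, another gene of the pentose phosphate pathway, was not measured under that symbol. Taldo1 lost its call without the library labelled Il10-/- air 48 hr replicate 1 (0.27, adjusted p = 0.0802).

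Of 9 measured genes of other NADPH-producing enzymes, Me1 alone was higher over the 3 times in each genotype, and none was lower. Of all genes, 5.27% were higher and 2.28% lower in Il10-/- lungs, and 2.74% and 0.92% in Il10+/+ lungs. The mitochondrial folate enzyme gene Mthfd2, named after its values were seen, had a difference from air of 0.73 in Il10-/- lungs (adjusted p = 0.0628) and of 0.68 in Il10+/+ lungs (adjusted p = 0.112). None of the 18 measured genes of the NAD-linked Krebs cycle passed in either genotype. Their list medians were 0.11 in Il10-/- and 0.06 in Il10+/+ lungs, against -0.01 over all genes in both. None of the 5 measured genes of the phagocyte NADPH oxidase and none of the 8 of fatty acid synthesis, both users of NADPH, passed over the 3 times.

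Users of NADPH for peroxide removal, and genes that work beside them, were counted in mitochondria and cytosol. The shares of all genes that were higher were 5.27% in Il10-/- and 2.74% in Il10+/+ lungs. Of 10 measured mitochondrial genes, 3 were higher in Il10-/- lungs, namely the superoxide dismutase gene Sod2 (0.73, SE 0.096, limma adjusted p = 5.42e-05), the glutathione reductase gene Gsr (0.72, SE 0.072, adjusted p = 1.68e-06), whose enzyme also works in the cytosol, and the peroxiredoxin gene Prdx3 (0.31, SE 0.083, adjusted p = 0.0246). Sod2 does not itself use NADPH. In Il10+/+ lungs 2 of the 10 were higher, Sod2 (0.39, adjusted p = 0.0192) and Gsr (0.34, adjusted p = 0.00626), while Prdx3 changed by 0.26 (adjusted p = 0.0804). The list medians were 0.1 in Il10-/- and 0.13 in Il10+/+ lungs. In Il10+/+ lungs, 3 genes of all the lists passed without air 24 hr replicate 1 or air 48 hr replicate 2, and 10 passed without Il10-/- O3 24 hr replicate 1 or 3, against 5.

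Of 10 measured cytosolic genes, 5 were higher in Il10-/- lungs with O3, where 5.27% of all genes were higher. They were the aldo-keto reductase gene Akr1b8 (1.46, SE 0.12, limma adjusted p = 5.35e-07), the thioredoxin reductase gene Txnrd1 (0.56, SE 0.07, adjusted p = 3.35e-05), the quinone reductase gene Nqo1 (0.56, SE 0.15, adjusted p = 0.023), the sulfiredoxin gene Srxn1 (0.35, SE 0.098, adjusted p = 0.0319) and, named after its value was seen, the thioredoxin gene Txn1 (0.22, adjusted p = 0.0386). In Il10+/+ lungs, where 2.74% of all genes were higher, 2 of the 10 were, Akr1b8 (1.13, adjusted p = 8.79e-06) and Txnrd1 (0.44, adjusted p = 0.000532). Nqo1 changed by -0.11 there (adjusted p = 0.788). Txnrd1 therefore passed in both genotypes and its mitochondrial relative Txnrd2 in neither, but with the mean of its probe sets Txnrd1 changed by 0.28 in each and did not pass (adjusted p = 0.119 in Il10-/- and 0.146 in Il10+/+).

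The 5 genes of these lists that lost their call in Il10-/- lungs without the library labelled Il10-/- air 48 hr replicate 1 were Taldo1, Me1, Prdx3, Txn1 and Srxn1, which left 7 of 12. The calls of 5 other genes held, with Tkt at 0.3 (limma adjusted p = 0.043), Sod2 at 0.65 (0.000577), Gsr at 0.71 (2.3e-05), Txnrd1 at 0.55 (0.000302) and Nqo1 at 0.61 (0.0441), as did those of Akr1b8 and Pgd. Nqo1 lost its call without Il10-/- air 24 hr replicate 1 (0.0695) or 2 (0.0732), and with array weights (0.0692). Tkt lost its call in a fit of only the arrays compared (0.0558). In Il10+/+ lungs Sod2 lost its call without air 24 hr replicate 1 (0.0961) or air 48 hr replicate 2 (0.0955). Without Il10-/- air 24 hr replicate 1, 7 genes of the lists passed, and without Il10-/- O3 24 hr replicate 3, 19 did. The markers of dividing cells moved with O3 as well: all 7 measured were higher in both genotypes, with a median change of 1.81 in Il10-/- and 1.41 in Il10+/+ lungs. Of all genes, 5.27% and 2.74% were higher in that order. Their summed log2 level spanned 7.9 to 11.42 with O3 and 8.15 to 8.92 in air in Il10-/- lungs, and 8.46 to 11.42 with O3 and 8.61 to 9 in air in Il10+/+ lungs. Of 8 endothelial markers, 3 were lower with O3 in Il10-/- and 0 in Il10+/+ lungs, where 2.28% and 0.92% of all genes were lower. Of 7 neutrophil markers, 0 passed for O3 in either genotype and 3 were higher in Il10-/- than in Il10+/+ lungs over O3, with summed levels of 11.7 to 12.95 in Il10-/- and 10.38 to 11.76 in Il10+/+ O3 lungs. Between the genotypes over O3, 0.637% of all genes passed in either direction. Of the other markers, in Il10-/- lungs 1 of 7 for alveolar type 2 cells and 1 of 7 for macrophages were higher, and 1 of 5 for alveolar type 1 cells and 1 of 6 for adipocytes were lower; none of these passed in Il10+/+ lungs, and none for club, B, T or red blood cells passed in either. Without the library labelled Il10-/- air 48 hr replicate 1, all 7 dividing cell markers were still higher in Il10-/- lungs (median 1.73), 2 of 8 endothelial markers were lower, and the macrophage and adipocyte counts were 0. Of 12394 genes, 2.98% were higher and 132 genes were lower there. The part of these markers in the changes of Pgd, Me1 and the other genes was not tested.

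**Figure D5:**
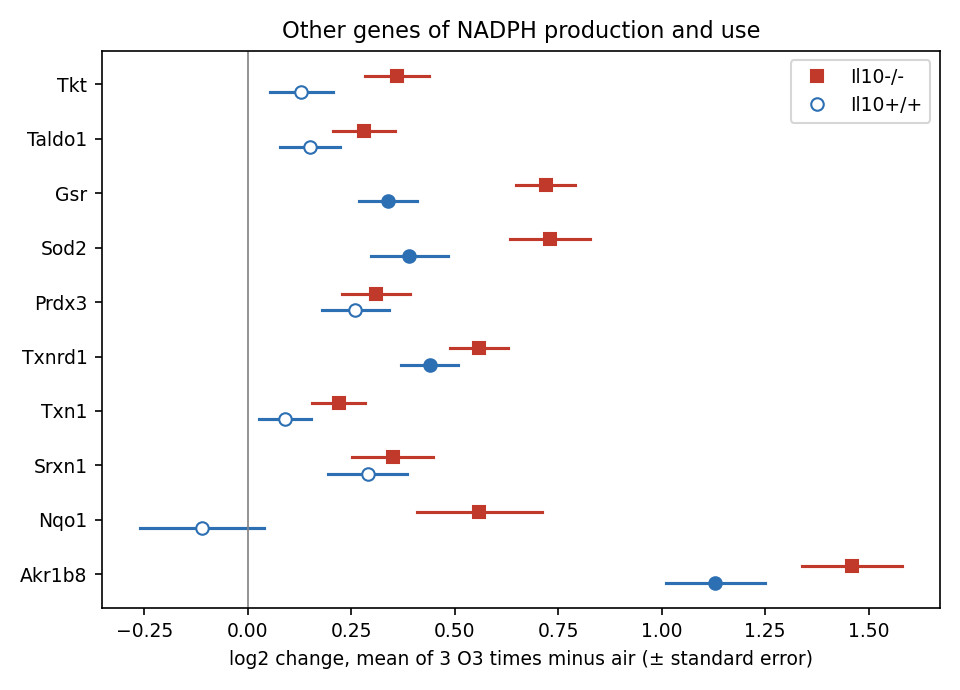
Mean of the 3 O3 times minus air on the log2 scale, with standard errors, for genes of NADPH production and use in Il10-/- (red squares) and Il10+/+ (blue circles) lungs. Filled symbols passed an adjusted p of 0.05 over 12394 genes: all 10 in Il10-/- lungs, for which they were chosen, and Gsr, Sod2, Txnrd1 and Akr1b8 in Il10+/+ lungs.

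Promoter windows of RefSeq in GRCm38.p6, from 250 bases before a gene's start to 50 after it, were searched on both strands for the core of the antioxidant response element, TGACNNNGC, the element bound by the oxidant-responsive factor Nrf2. It was found in 12.4% of all 32851 windows and in 2 of 8 windows of the members (5 genes had a window). The window of Me1 is shown because its match lies across the start of the gene, from 6 bases before it to 3 after. The 150 bases that end with the match are on the minus strand of chr9:86695912-86696061, with the match in capitals.

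Me1: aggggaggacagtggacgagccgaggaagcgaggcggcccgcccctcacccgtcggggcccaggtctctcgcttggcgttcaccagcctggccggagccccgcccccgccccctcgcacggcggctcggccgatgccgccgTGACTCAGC

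The match TGACTCAGC also contains TGACTCA, the letters of an AP-1 site, so the letters alone do not tell these motifs apart. Me1 has another window, for another start, with no match. Of the 2 windows of Pgd, 1 has a match (TGACATTGC) that begins 4 bases past the start, outside the 250 bases before it. The windows of Idh1, Idh2 and Txnrd2 have none. Whether a match goes with a change under O3 was not tested. A match is a description of letters, and no binding was measured.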

How the data were processed

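RNA of left lungs was hybridised to 26 Affymetrix mouse arrays. The deposited table holds log2 values, which the authors obtained by Robust Multichip Average (RMA) normalization in RMAExpress; its version is not given in the sources used here. RMA gives all arrays a like distribution (array medians were 6.54 to 6.68) and compresses differences of dim probe sets. The number of arrays limits the precision.

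Of 22690 probe sets, 20393 had 1 symbol in the platform annotation, and 691 with several and 1606 with none listed were left out. For each of 12394 genes, the probe set of highest mean was used; 12370 of the genes matched the RefSeq gene table. The linear model (limma 3.58.1, R 4.3.3) held 8 group means over 25 arrays, with empirical Bayes moderation and Benjamini-Hochberg adjustment over all genes at 0.05. SE is the moderated standard error, and a ratio is the log2 difference put back on the linear scale. Replicate 2 of the Il10-/- mice given O3 for 24 hr was omitted; the study's methods also omit 1 array of that group, without giving its number. The p-values measure the spread between samples as labelled.

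The members, lists and tests were chosen with earlier results of these data known. Named genes were the members, up to 4 genes per pathway list past the threshold, the 6 measured neighbours of Nnt on each side, Il10, and the 3 genes most correlated with each member; genes outside this rule are marked where they are named. The code was tested on simulated data, and plots were made in matplotlib 3.10.9 (Python 3.11.15). Alternatives used all 26 arrays, air matched for time, a block for replicate number, a fit to the groups compared alone, weights per array, a covariate for the letter c in some source names, a filter on the lowest genes, centring by array median, averaged probe sets, and each array omitted in turn.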

Additional observations from a re-analysis of the deposited data

Results flagged for a closer look

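The library labelled Il10-/- air 48 hr replicate 1 had an Il10 log2 value of 3.87, far from the other 3 air arrays of its genotype (6.59, 6.29 and 6.72), with a gap wide enough to be called an outlier of 4 values at the 95% level. Chance gives a gap past the 95% cutoff in about 1 in 20 groups, and this rate takes no account of the Il10+/+ levels. The air groups of both genotypes were checked for the 6 genes and Il10, so a flag by chance somewhere among them is likelier than that. Nnt on the same array, at 7.66 against 8.9, 8.9 and 9.18, did not reach that level. The Il10 value lay just below the Il10+/+ arrays (3.92 to 4.25), and the Nnt value lay among them (7.43 to 7.89). Whether this library is mislabelled was not tested.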

How the results depend on the processing

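The counts of members higher with O3 depended on the arrays and the model. In Il10-/- lungs the count was 2, but 0 with all 26 arrays, and 1 each with the replicate block, array weights, the letter covariate or averaged probe sets; leaving out 1 array gave 1 to 2. In Il10+/+ lungs the count was 1, but 0 with all 26 arrays, 0 with only the arrays compared, and 2 each with array weights or median centring; leaving out 1 array gave 0 to 2. The labels do not say that a replicate number marks a shared batch. Deviations from group means had a median r of 0.104 over 96 same-numbered pairs (50 over 0.1) and of -0.056 over 184 different-numbered pairs (28 over 0.1). Same-numbered arrays were thus more alike, but the main fit held no block for the number. What arrays of the same number share was not tested. With the replicate block, the Il10-/- calls of Me1 were lost over the 3 times (0.31, limma adjusted p = 0.0613) and at 48 hr (0.39, adjusted p = 0.0568).

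Some values changed sign, among them the called change of Me1 in Il10-/- lungs (0.31 over the 3 times). With all 26 arrays, Me1 in Il10-/- lungs was -0.95 at 24 hr and -0.08 over the 3 times, Idh2 was -0.06 and Txnrd2 0.15 over the 3 times, Il10-/- minus Il10+/+ over O3 was -0.06 for Idh2 and 0.11 for Txnrd2, and the genotype difference in response was -0.07 for Idh2 and 0.17 for Txnrd2. With averaged probe sets, Txnrd2 in Il10-/- lungs was 0 and its difference in response 0.02, Il10-/- minus Il10+/+ in air was 0.11 for Me1 and -0.08 for Pgd, and over O3 it was 0.04 for Idh1 (0.02 with median centring). In Il10+/+ lungs Idh2 was -0.02 with the replicate block and Txnrd2 was 0.01 with array weights. Leaving out 1 array gave -0.2 to 0.3 for Nnt in Il10-/- lungs, -0.02 to 0.03 for Idh2 and -0.08 to 0.03 for Txnrd2 in Il10+/+ lungs, -0.05 to 0.07 for Idh2 and -0.15 to 0.02 for Me1 between genotypes in air, -0.08 to 0.02 for Idh1 between genotypes over O3, and -0.08 to 0.42 for Nnt and -0.13 to 0.04 for Me1 as differences in response. The array that the fit of all 26 adds lacked the lung markers and had values of 6.02 for Me1, 9.1 for Idh2 and 9.41 for Txnrd2. Beyond the arrays or probe sets that each setting removes, adds or averages, the cause was not tested.

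Over all genes, 936 were called in Il10-/- lungs (302 with all 26 arrays, 411 with only the arrays compared, 501 to 1975 without 1 array, the lowest without Il10-/- air 48 hr replicate 1) and 454 in Il10+/+ lungs (21, 878, and 227 to 824 in that order, and 1628 with array weights). Between genotypes 79 were called over O3 (23 with all 26 arrays, 35 to 857 without 1 array) and 1 in air (110 with array weights, 3 with the replicate block or averaged probe sets, 0 with the letter covariate or only the arrays compared, 0 to 18 without 1 array). Genes of the pathway lists that were higher numbered 12 in Il10-/- lungs (6 with all 26 arrays, 7 with only the arrays compared) and 5 in Il10+/+ lungs (0, 9, and 15 with array weights). With all 26 arrays Pgd in Il10-/- lungs was 0.24 over the 3 times (limma adjusted p = 0.307). Array weights (0.22, adjusted p = 0.0177) and median centring (0.24, adjusted p = 0.0442) brought Pgd in Il10+/+ lungs past the threshold. Air of the same exposure time gave no value at 72 hr or over the 3 times.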
